A study of Mus musculus with 2 samples.

Results

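Arterial endothelial barcodes of the fetal mitral valve leaflet were taken as the droplets in which the summed UMIs (unique molecular identifiers, each counting 1 captured RNA molecule) of Gja5, Gja4 and Cxcl12 reached at least 3 and strictly exceeded 5 rival sums. The rival sums stood for Npr3 and Plvap, Wnt4 and Pthlh, capillary, Vwf and Procr, and lymphatic endothelial cells. The choice was made among endothelial barcodes, those with at least 3 UMIs of Pecam1, Cdh5 and Egfl7 together. It gave 84 of 2615 endothelial barcodes in the mutant library and 131 of 3755 in the control library, 215 of 17162 kept barcodes in all. Members were thus chosen on these UMI counts, and every level below that separates them from other endothelial barcodes is a description.

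Arteries and veins are lined by endothelial cells of different programmes. Arterial cells signal through the Notch pathway, in which the ligands Dll4, Jag1 and Jag2 act on Notch1 and Notch4 and switch on Hey genes, and through Sox17. They couple to each other through the connexins encoded by Gja5 (connexin 40) and Gja4 (connexin 37), and they divide little once specified. Cxcl12, a chemokine that acts on Cxcr4, is made by arterial endothelium of the growing coronary tree.

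The mutant group came from E17.5 mouse embryos that carry Nfatc1-Cre and 2 floxed Dicer alleles (Dicer loxp/loxp), and the control group from wild-type E17.5 embryos, which carry neither. Dicer1 cuts microRNA precursors, and Nfatc1 is a transcription factor of the endocardium, so a Cre under its control is aimed at endocardium and its descendants. The labels do not name the line or give its activity in coronary arteries. Each genotype gave 1 library from the pooled leaflets of 3 to 4 hearts, dissociated in 0.05% trypsin, sorted for viable cells and prepared with 10x 3′ v3 chemistry. With 1 library each, no difference between genotypes could be tested. All intervals below are 95% intervals and cover counting error only, not the variation between embryos, pools or dissections.

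Promoters of 3 of the genes that mark the members are printed to show what stands around the starts of genes on which the choice and its check turn. These are Cxcl12 and Gja4 from the choice, and Sema3g, a secreted semaphorin that the choice did not use. They are RefSeq windows of GRCm38.p6, 250 bases before to 50 after the start, at chr6:117168285-117168584 (plus strand), chr14:31217623-31217922 (plus strand) and chr4:127313990-127314289 (minus strand). Capitals mark TGGGAA, the core recognised by the Notch effector RBPJ, and ACAAT, a SOX factor core, searched on both strands (TTCCCA and ATTGT on the other).
Cxcl12 promoter: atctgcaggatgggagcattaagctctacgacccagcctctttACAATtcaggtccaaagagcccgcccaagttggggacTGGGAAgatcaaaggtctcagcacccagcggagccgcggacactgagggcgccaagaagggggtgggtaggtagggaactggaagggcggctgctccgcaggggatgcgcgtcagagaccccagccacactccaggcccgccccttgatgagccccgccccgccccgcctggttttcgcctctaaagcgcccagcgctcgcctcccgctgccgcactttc
Sema3g promoter: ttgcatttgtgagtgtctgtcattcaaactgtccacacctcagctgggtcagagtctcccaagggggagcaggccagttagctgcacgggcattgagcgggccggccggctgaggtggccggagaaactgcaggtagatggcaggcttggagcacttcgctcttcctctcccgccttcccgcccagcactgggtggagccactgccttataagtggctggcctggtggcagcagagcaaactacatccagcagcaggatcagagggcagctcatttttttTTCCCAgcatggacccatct
Gja4 promoter: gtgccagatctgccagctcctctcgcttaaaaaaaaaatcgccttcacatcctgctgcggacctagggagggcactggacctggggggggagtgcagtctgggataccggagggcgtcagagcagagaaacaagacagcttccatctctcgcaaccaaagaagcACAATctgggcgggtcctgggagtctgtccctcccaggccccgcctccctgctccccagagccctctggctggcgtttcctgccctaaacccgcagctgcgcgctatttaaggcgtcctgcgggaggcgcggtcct
Cxcl12 holds both motifs, Sema3g the RBPJ core and Gja4 the SOX core. The Sema3g match begins at base 281 of its window of 300, after the start of the gene, and the others lie before the start. Over the whole RefSeq table, 25.6% of 32851 promoters held the RBPJ core and 31.0% held the SOX core, so a match in a window of this length is common. Of 25 genes, the 6 markers together with the 20 that stood highest over other endothelial barcodes (Sema3g is in both), 22 had a RefSeq promoter, and 8 of their 25 windows held each motif. These matches describe letters and do not show binding.

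The arterial sum was well above its minimum in most members. Its median was 22.5 UMIs in mutant and 12 UMIs in control members, with ranges of 3 to 119 and 3 to 70. Just inside the rule, 2 mutant and 8 control members had a sum of exactly 3; just outside it, 6 mutant and 2 control barcodes had a sum of 2 as their strict maximum, and 11 mutant and 30 control barcodes with at least 3 were tied with another sum. All 3 genes were seen in 55 of 84 mutant and 74 of 131 control members, and 1 member in each library had neither connexin.

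**Figure D1:**
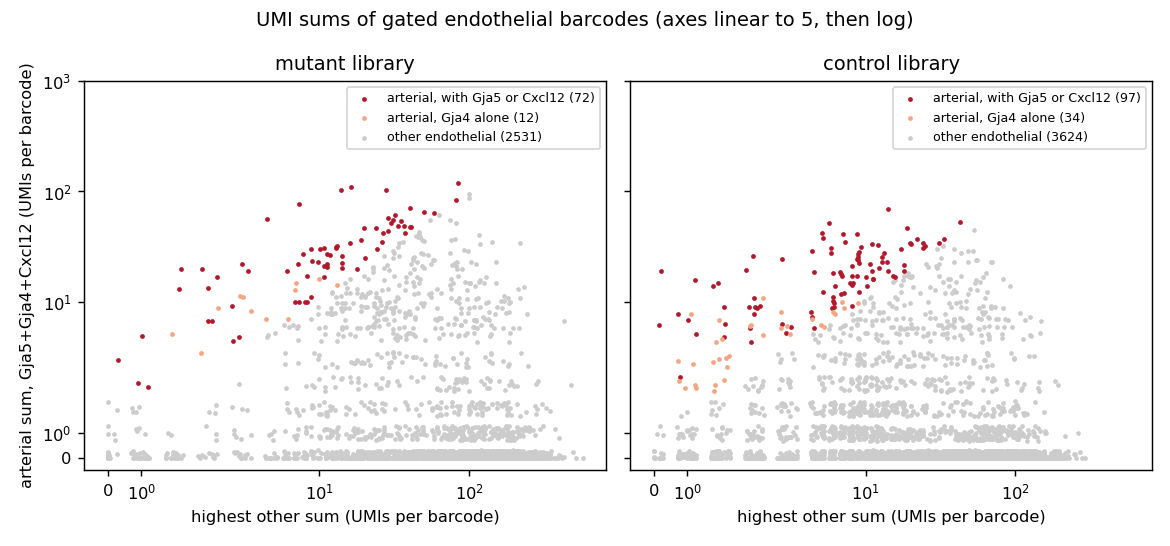
Arterial UMI sum of each endothelial barcode (vertical axis) against its highest rival sum (horizontal axis), mutant library left and control library right, with both axes linear to 5 and logarithmic above and points jittered. Members with a UMI of Gja5 or Cxcl12 (72 mutant, 97 control) reach the highest sums, 119 in the mutant and 70 in the control library, while members with Gja4 alone (12 mutant, 34 control) lie lower.

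The members separated by which of the 3 genes admitted them. A UMI of Gja5 or Cxcl12 was present in 72 of 84 mutant and 97 of 131 control members. The other 12 mutant members (14.3%, 7.61% to 23.6%) and 34 control members (26.0%, 18.7% to 34.3%) entered through Gja4 alone. In these the median arterial sum was 10 UMIs in mutant and 5 UMIs in control members. Their median total of UMIs, 7659 in the mutant and 4802 in the control library, was above that of the members with Gja5 or Cxcl12, 5353 and 3937, so they were not the shallower barcodes.

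Members with Gja4 alone went against the arterial label. Gja4 itself stood at 1184 CPM (UMIs of the summed barcodes scaled to a total of 1000000) in the 12 mutant ones and 1102 CPM in the 34 control ones, against 1520 and 1561 CPM in members with Gja5 or Cxcl12. Sema3g had 1 UMI in the 12 mutant and 0 in the 34 control ones, against 124 and 107 UMIs in the other members. Jag1 had 2 and 0 UMIs there, against 325 and 246. Both genes, a guidance signal and a Notch ligand, were thus nearly unseen when Gja4 was alone. Hey1, a Notch target, had 1 and 0, against 140 and 148. Dll4 had 0 and 0, against 91 and 68. Jag2 had 0 and 1, against 144 and 103. With 0 UMIs among 101379 in the 12 mutant members, the interval for Dll4 still reached 36.4 CPM, and among 173285 in the 34 control members 21.3 CPM.

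Several valve endothelial and endocardial genes, and Procr of the Vwf and Procr sum, were higher in the members with Gja4 alone. Plvap, Npr3, Procr and Wnt4 are genes of rival sums, so the choice itself bounds their levels in members. Nfatc1 stood at 227 CPM in the mutant and 127 CPM in the control ones, against 12.7 and 24.2 CPM in the members with Gja5 or Cxcl12. Plvap, which encodes the protein of endothelial diaphragms, stood at 187 and 127 CPM, against 6.33 and 26.6 CPM. Procr, the protein C receptor, stood at 276 and 196 CPM, against 48.5 and 46.0 CPM. Hand2os1, the antisense neighbour of the cardiac factor Hand2, stood at 256 and 831 CPM, against 10.5 and 70.2 CPM, and the adhesion gene Cdh11 at 207 and 381 CPM, against 2.11 and 84.7 CPM. Wnt4 was seen in 5 of the 12 and 6 of the 34, with 0 UMIs in all members with Gja5 or Cxcl12. Npr3, a natriuretic peptide receptor, was the exception, at 59.2 and 156 CPM against 61.1 and 60.5 CPM, and so higher in the control library only.

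Among 3412 genes with a mean of at least 50 CPM over both kinds of member, 166 (4.87%) stood 2-fold or more above and 277 (8.12%) stood 2-fold or more below the other members when Gja4 was alone, in both libraries. Both counts compare groups split on Gja5 and Cxcl12 themselves and are descriptions. The genes that led the higher side included Gata5, an endocardial transcription factor (118 and 92.3 CPM against 0 and 4.84), Epha7, an ephrin receptor (335 and 214 against 2.11 and 16.9), Ctsk, a protease (306 and 323 against 6.33 and 14.5), and Hapln1, which links hyaluronan to proteoglycans (779 and 75.0 against 0 and 2.42). The genes that led the lower side included Depp1 (0 and 0 against 645 and 477 CPM), Lpar4, a lysophosphatidic acid receptor (29.6 and 23.1 against 1322 and 1075), and Apln, the ligand apelin (0 and 0 against 139 and 155). Of the 25 genes of the arterial identity list, 22 stood 2-fold or more lower with Gja4 alone in both libraries, 0 higher, and Efnb2, Edn1 and Mgp were the exceptions. Mgp stood at 444 and 854 CPM with Gja4 alone, against 171 and 489 CPM. Results below are given for all members and, where they differ, for those 72 and 97. That split was chosen after these values were seen.

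**Figure D2:**
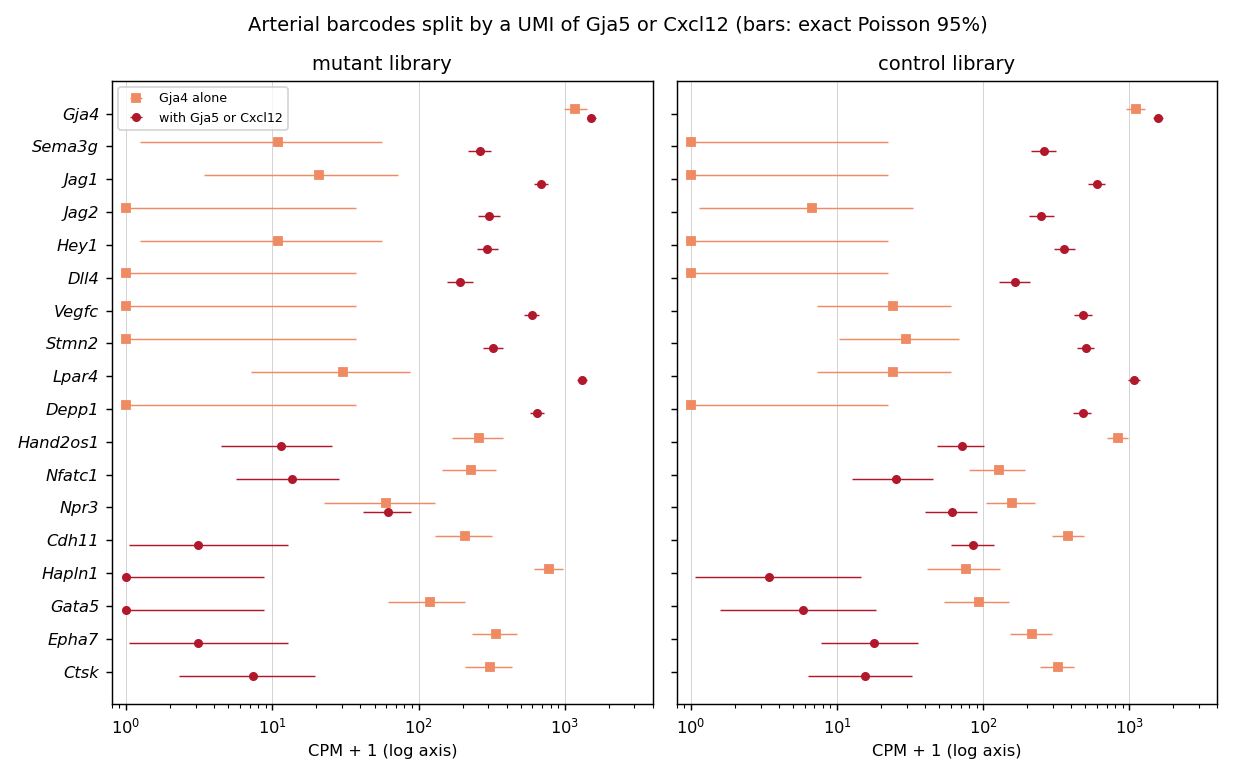
Level of each gene as CPM + 1 on a logarithmic axis in members with Gja4 alone (squares) and with Gja5 or Cxcl12 (circles), mutant library left and control library right, with exact Poisson intervals. In both libraries Sema3g, Jag1, Dll4 and the other arterial genes lie far lower in members with Gja4 alone, whereas Nfatc1, Cdh11, Epha7 and Ctsk lie higher.

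The 3 genes of the choice differed in how much of them other endothelial barcodes held. Gja5 (chromosome 3, 96904693 to 97077416, plus strand) stood at 749 CPM in mutant and 624 CPM in control members, against 17.6 and 12.5 CPM in the other endothelial barcodes. Cxcl12 (chromosome 6, 117168535 to 117181367, plus strand) stood at 2284 and 1635 CPM, against 82.0 and 50.8 CPM. Gja4 (chromosome 4, 127311421 to 127314039, minus strand) stood at 1461 and 1425 CPM, against 105 and 111 CPM. Gja4 was also the most widely expressed, with 279 CPM in mutant and 169 CPM in control Npr3 and Plvap barcodes, where Gja5 had 0.903 and 2.88 CPM and Cxcl12 had 3.61 and 3.98 CPM. Gja4 also stood at 320 CPM in mutant and 162 CPM in control Vwf and Procr barcodes. In Wnt4 and Pthlh barcodes it stood at 131 and 190 CPM. Coordinates are those of GENCODE M21 on GRCm38.

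Of the 3 further markers, Sema3g stood at 217 CPM in mutant and 182 CPM in control members, with 19.97 and 13.8 CPM in capillary barcodes and 2.26 and 0.221 CPM in Npr3 and Plvap barcodes. In the mutant Vwf and Procr barcodes, which numbered 23, Sema3g reached 71.6 CPM, against 3.46 CPM in the 48 control ones. Jag2 stood at 250 CPM in mutant and 177 CPM in control members, with 66.1 and 48.8 CPM in capillary barcodes. Igfbp3, an insulin-like growth factor binding protein, stood at 419 and 430 CPM, with 173 and 161 CPM in capillary barcodes, the smallest gap of the 3.

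**Figure D3:**
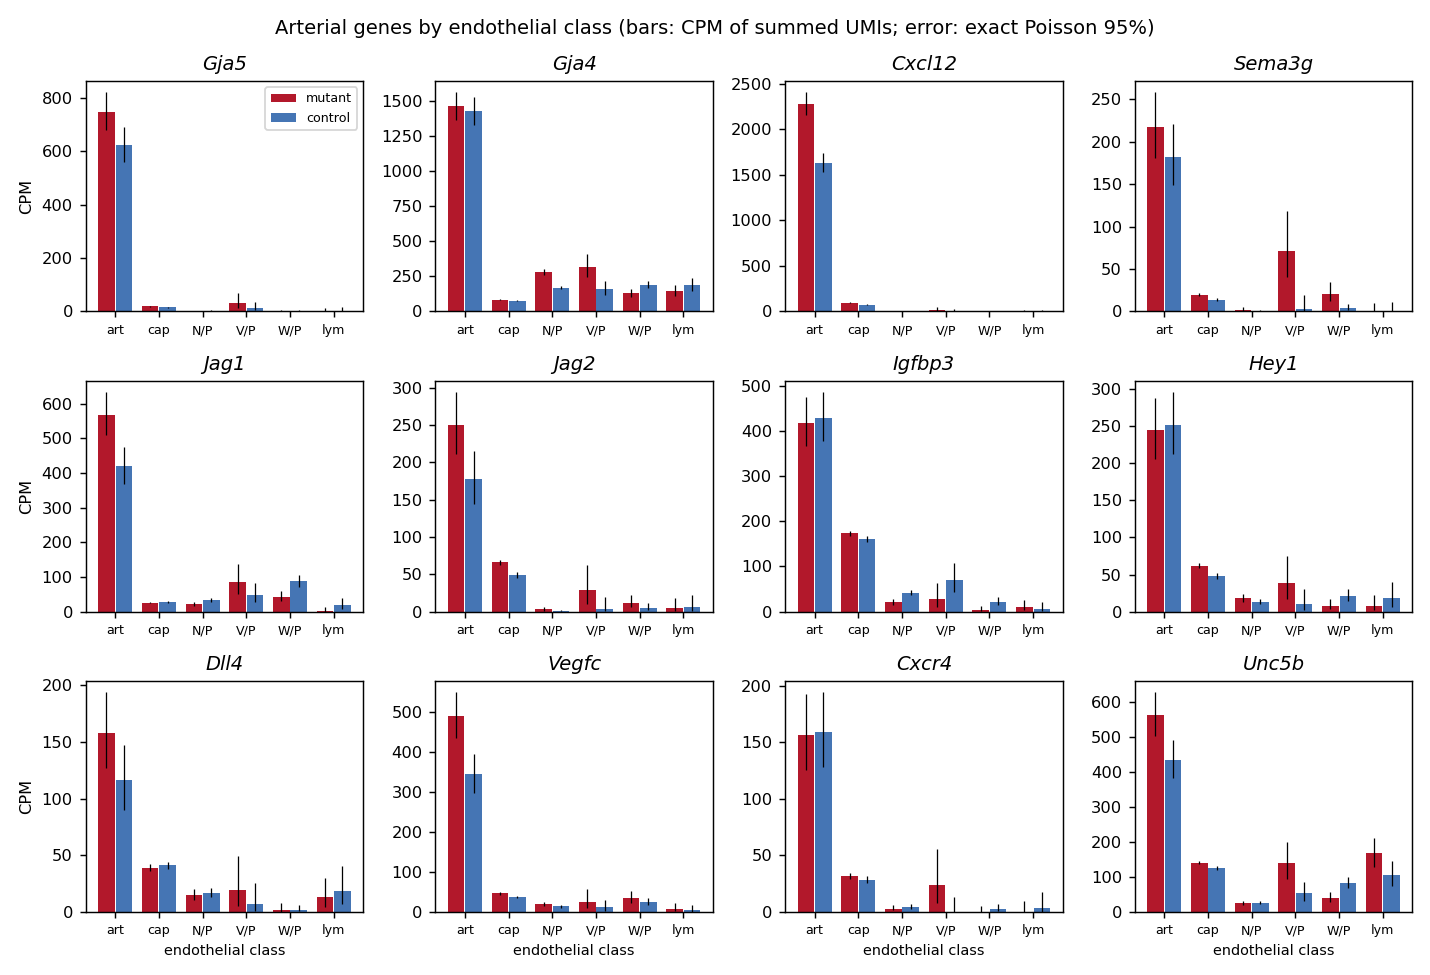
CPM of 12 arterial genes (bars, exact Poisson intervals) in the 6 endothelial classes, mutant left of control in each pair: arterial (art), capillary (cap), Npr3 and Plvap (N/P), Vwf and Procr (V/P), Wnt4 and Pthlh (W/P) and lymphatic (lym). The arterial pair is the highest in every panel, and Gja4 also has 279 CPM in mutant and 169 CPM in control Npr3 and Plvap barcodes.

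Free RNA in droplets was gauged from macrophages. After each barcode was thinned to 2000 UMIs, Gja5 had a UMI in 65.8% of 76 mutant and 48.7% of 113 control members, and Cxcl12 in 65.8% and 61.9%. Among macrophage barcodes thinned in the same way, which should lack both genes, Gja5 was seen in 0 of 351 mutant and 0 of 428 control barcodes and Cxcl12 in 0.57% and 0.467%. Before thinning, Gja5 was seen in 63 of 84 mutant and 82 of 131 control members, whose median totals were 5793 and 4232 UMIs.

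Summed over all members, both libraries carried a broad arterial programme, although most of its genes lay lower in members with Gja4 alone. Of 3380 genes with a mean of at least 50 CPM over the compared groups, 137 (4.05%) stood 2-fold or more above and 74 (2.19%) stood 2-fold or more below the other endothelial barcodes in both libraries. For members with Gja5 or Cxcl12 these counts were 182 and 109 of 3352 genes. Of the list of 25 arterial identity genes, 22 were 2-fold higher in both and 0 lower, and the median log2 ratio was 2.14 in the mutant and 1.89 in the control library. Over all 8632 genes at 10 CPM, 305 (3.53%) were 2-fold higher and 281 (3.26%) lower in both, and the medians were 0.02 and 0.05. Of the 25, Rbp7, Tsc22d1 and Mgp were not 2-fold higher in both, and Mgp, a matrix protein, lay at -0.26 and -0.22.

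Ligands of the Notch pathway were among the highest. Jag1 stood at 568 CPM in mutant and 419 CPM in control members, against 27.0 and 32.3 CPM in the other endothelial barcodes, log2 ratios of 4.40 and 3.70. Dll4 stood at 158 and 116 CPM, against 33.9 and 31.5 CPM. Jag1, Jag2, Dll4, the receptor Notch4, the target Hey1 and the sugar transferase Lfng were 2-fold higher in both libraries, 6 of 19 measured pathway genes, and 0 were lower. The receptor Notch1 was 1.05 higher on the log2 scale in the mutant and 0.79 in the control library, and the effector Rbpj lay at -0.01 and 0.30, smaller differences than those of the ligands.

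Transcription factors and receptors of arterial fate followed the same order in both libraries. Sox17 stood at 582 CPM in mutant and 397 CPM in control members, against 132 and 88.7 CPM. Mecom, a zinc finger factor, stood at 636 and 484 CPM, against 125 and 101 CPM. Efnb2, the ephrin that marks arteries against veins, stood at 618 and 585 CPM, against 187 and 174 CPM in the pooled other endothelial barcodes. Its gap to Vwf and Procr barcodes was smaller, with 501 CPM in the mutant and 314 CPM in the control ones. Bmx, 2-fold higher than in the pooled others, stood at 83.4 CPM in mutant and 83.6 CPM in control members. It was no higher there than in Npr3 and Plvap barcodes, at 88.1 and 96.2 CPM. The netrin receptor Unc5b stood at 563 and 435 CPM, against 128 and 99.5 CPM. Of 9 venous genes, 2 stood 2-fold lower in both libraries and 0 higher, with medians of -0.59 and -0.33: the factor Nr2f2, at -2.18 and -1.36, and Nrp2, a co-receptor of veins and lymphatics, at -3.66 and -3.89. Ephb4, the venous receptor of ephrin B2, stood at 93.8 and 97.2 CPM in the members, against 89.5 and 81.0 CPM in capillary barcodes.

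The 20 genes that stood highest over the other endothelial barcodes included secreted signals, ranked by the smaller of both libraries' log2 ratios. Tmem178, a transmembrane protein, ranked first with log2 ratios of 4.35 in the mutant and 4.14 in the control library, and Sema3g had 3.57 and 4.23. Serpinf1, which encodes the anti-angiogenic factor PEDF, stood at 353 CPM in mutant and 266 CPM in control members, against 23.8 and 17.3 CPM. Vegfc, a ligand of the lymphatic receptor VEGFR3, stood at 490 and 344 CPM, against 41.6 and 30.4 CPM. Cxcr4, the receptor of Cxcl12, stood at 156 and 159 CPM, against 27.0 and 19.99 CPM. Cxcr4 was not used in the choice, whereas the high level of its ligand Cxcl12 follows from the choice. Igfbp2, Sema7a and the elastic fibre protein Fbln5 were in the same group, with ratios between 2.35 and 3.45.

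Among the rest of that group were channel and enzyme genes. Kcnj8, the pore subunit of the vascular potassium channel gated by ATP, stood at 214 CPM in mutant and 148 CPM in control members, against 30.0 and 18.9 CPM. Its partner subunit Abcc9 stood at 370 and 363 CPM, with ratios of 2.25 and 2.71. Both are also markers of mural cells, whose summed list made up 0.0929% of the members' UMIs in the mutant and 0.0658% in the control library. Rgs5, the leading pericyte gene, had 41 UMIs in 5 mutant members and 18 UMIs in 8 control members, with 87.8% of the mutant UMIs in 1 barcode, while Abcc9 was seen in 61 and 75. Amd1 and Sat1, enzymes of polyamine metabolism, had ratios of 2.58 and 2.54 and of 2.53 and 2.32, and Odc1, the first enzyme of that route, lay among the 8 lowest genes at -2.25 and -2.33. Alox12, Pcsk5, Slc45a4, Tmem178, Thsd7a, Nckap5, Pdzd2, Stmn2 and Tmem100 completed the group.

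**Figure D4:**
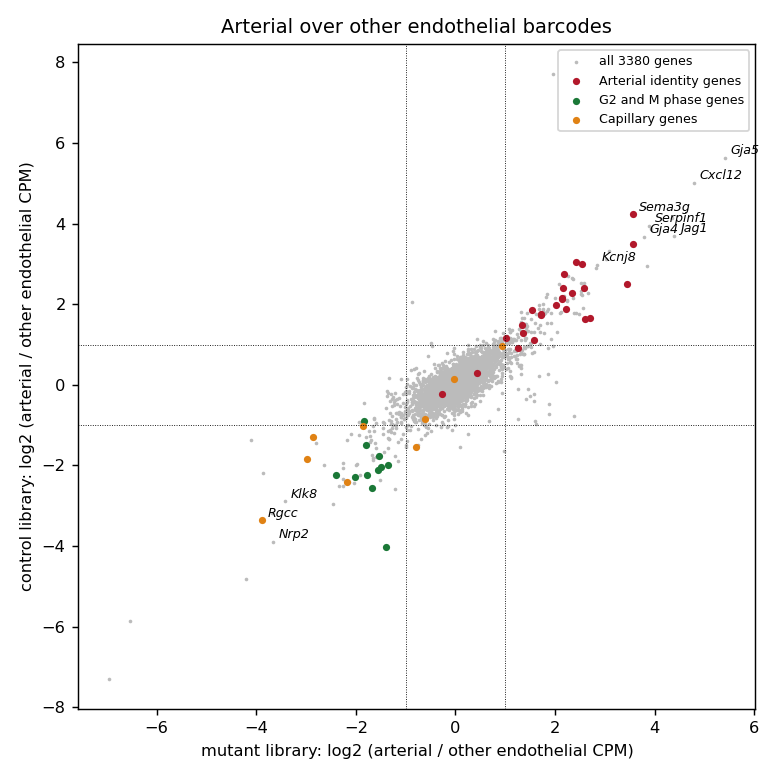
Log2 ratio of arterial over other endothelial CPM in the mutant library (horizontal axis) and in the control library (vertical axis) for 3380 genes, with lists coloured and dotted lines at 2-fold. Most arterial identity genes lie in the upper right quadrant and G2 and M phase and capillary genes in the lower left.

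Few members were dividing. At least 3 UMIs of Mki67, Top2a, Cenpf, Birc5 and Ube2c were found in 6 of 84 mutant members (7.14%, 2.67% to 14.9%) and 8 of 131 control members (6.11%, 2.67% to 11.7%), against 42.2% of mutant and 35.2% of control capillary barcodes. After thinning to 2000 UMIs, any UMI of the 5 genes was seen in 11.8% of mutant and 11.5% of control members. The thinned shares were 44.1% and 42.8% in capillary barcodes and 17.3% and 12.8% in Npr3 and Plvap barcodes. Of 24 genes of G2 and M phase, 22 were 2-fold lower than in other endothelial barcodes in both libraries and 0 higher. Most of those other barcodes were capillary, 2116 in the mutant and 2369 in the control library. Capillary genes were also low, with 5 of 9 measured lower in both, among them Rgcc, at 10.4 CPM in mutant and 13.6 CPM in control members, against 166 and 149 CPM. Capillary RNA was not absent: Fabp4, a lipid carrier and gene of the rule, was seen in 72 of 84 mutant and 97 of 131 control members, at 1636 and 1078 CPM.

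The share of arterial barcodes was close in the 2 libraries. Members were 3.21% (2.57% to 3.96%) of mutant and 3.49% (2.92% to 4.13%) of control endothelial barcodes. When barcodes were first thinned to 2000 UMIs and then chosen, the shares were 3.65% of 1920 and 3.67% of 2508. Without members that had Gja4 alone, and without thinning, they were 2.75% of 2615 and 2.58% of 3755. A wider definition gave another picture: an arterial sum of at least 10, whatever the other sums, was reached by 218 mutant barcodes (8.34%, 7.30% to 9.46%) and 147 control barcodes (3.91%, 3.32% to 4.59%). Of these, 125 mutant and 61 control barcodes were capillary by the rule. The median depth of endothelial barcodes was 8587 UMIs in the mutant and 5398 UMIs in the control library. With all barcodes thinned to 2000 UMIs, a sum of at least 3 was reached by 11.3% of mutant and 8.53% of control barcodes.

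Dicer1, the targeted gene, was not clearly lower in mutant members. It had 53 UMIs (92.1 CPM, 69.0 to 120) in mutant members and 59 UMIs (101 CPM, 76.6 to 130) in control members, a log2 ratio of -0.13 (-0.69 to 0.43). In capillary barcodes the ratio was -0.32 and in Npr3 and Plvap barcodes -0.77. In Wnt4 and Pthlh barcodes Dicer1 stood at 27.8 CPM (17.2 to 42.5) in the mutant and 99.5 CPM (83.3 to 118) in the control library. The difference between classes was not tested. The labels do not say which exons the loxP sites flank, and 3′ reads may lie outside them, so this level does not check the deletion. Nfatc1 stood at 50.4 CPM in mutant and 54.6 CPM in control members, and 23 of its 29 mutant and 22 of its 32 control UMIs lay in the members with Gja4 alone.

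Across the transcriptome the members of both libraries were close in level, apart from a small set of genes. Of 3370 genes with a mean of at least 50 CPM, 41 (1.22%) stood 2-fold or more above and 32 (0.95%) stood 2-fold or more below control in mutant members, and the median log2 ratio was 0.01. In capillary barcodes, with far more UMIs, 2 of 3199 genes were higher and 1 lower. In Npr3 and Plvap barcodes, with 2214344 mutant and 4519647 control UMIs, 41 of 3416 genes were higher and 15 lower. Among members with Gja5 or Cxcl12 the counts were 45 (1.35%) and 39 (1.17%) of 3339 genes. Single barcodes weighed heavily: without the mutant member richest in cardiomyocyte RNA and the control member that held the mast cell genes, 21 genes were higher and 27 lower. Those 2 barcodes were picked after seeing the data. Members of male type, with a UMI of a Y-linked gene and none of Xist, numbered 20 of 84 in the mutant and 0 of 131 in the control library, so sex and genotype cannot be told apart in part of this comparison. Over female-type members alone, 43 mutant and 127 control, 65 genes were higher and 36 lower.

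The arterial genes given here differed by less than 1.5-fold between genotypes. Gja4, Gja5 and Cxcl12 chose the members, so their ratios are descriptions. Over all members the intervals of Gja5 and Cxcl12 lay above 0. Gja4 had a log2 ratio of 0.04 (-0.10 to 0.18), Gja5 of 0.26 (0.06 to 0.47) and Cxcl12 of 0.48 (0.36 to 0.60). Among members with Gja5 or Cxcl12 these became -0.04, 0.04 and 0.26, with 2773 CPM of Cxcl12 in mutant and 2321 CPM in control members. Sema3g stood at 261 and 259 CPM in those members, a ratio of 0.01 (-0.37 to 0.40), and Jag1 at 685 and 595 CPM, a ratio of 0.20 (-0.04 to 0.45). The guidance signal and the Notch ligand thus had intervals that include 0. Hey1 stood at 295 and 358 CPM there (-0.28, -0.62 to 0.06) and Dll4 at 192 and 165 CPM (0.22, -0.25 to 0.70). The widest of these intervals still allow changes of more than 1.5-fold.

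For lists, genes were counted at 1.5-fold with a mean of at least 10 CPM, where 12% of 8512 genes lay higher and 13.1% lower in mutant members. Of 25 arterial identity genes, 4 were higher (Depp1, Rbp7, Clu and Glul) and 2 lower (Edn1 and Mgp), with a median of 0.25. Among members with Gja5 or Cxcl12 the median was 0.01, with 2 higher (Rbp7 and Clu) and 3 lower (Edn1, Stmn2 and Mgp), beside 12.9% and 15% of 8260 genes. Edn1, the vasoconstrictor endothelin, stood at 61.1 CPM in those mutant and 131 CPM in those control members, a ratio of -1.08 (-1.80 to -0.42). Stmn2, a microtubule regulator, stood at 325 and 501 CPM, a ratio of -0.62 (-0.94 to -0.32), with UMIs in 25 of 72 mutant and 46 of 97 control members.

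The Notch list leaned higher in mutant members, with 6 of 19 genes higher, 2 lower and a median of 0.44, beside 12% and 13.1% of all genes. In Npr3 and Plvap barcodes 3 of 16 were higher and 1 lower, with a median of 0.31. In capillary barcodes 0 of 15 were higher and 0 lower, with a median of 0.15. Nrarp, a target that restrains Notch, stood at 169 CPM in mutant and 78.4 CPM in control members, a ratio of 1.09 (0.58 to 1.64), and of 0.89 (0.36 to 1.45) among members with Gja5 or Cxcl12. In capillary barcodes its ratio was -0.10. Hey2 had a ratio of 1.61 (0.68 to 2.73), with 37 UMIs in 13 mutant and 12 UMIs in 11 control members. Without the members with Gja4 alone, 3 of 18 list genes were higher, 1 lower, and the median was 0.21. Over barcodes with an arterial sum of at least 10, whatever the other sums, the median was -0.055 and Nrarp lay at -0.055, so the direction turned.

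By the rule of size, the 12 named genes that lay highest in mutant members were Fst, Ckb, Thbs1, Rgs16, Apold1, Tcim, Slco3a1, Ccm2l, Nrarp, Gja1, Btg2 and Efhd2. Of these, 4 were still 2-fold higher among members with Gja5 or Cxcl12. Ckb, a brain-type creatine kinase, stood at 95.5 CPM (72.0 to 124) in mutant and 22.2 CPM (11.8 to 37.9) in control members, a ratio of 2.07 (1.22 to 3.10), and 2.31 among those with Gja5 or Cxcl12. It was seen in 13 mutant and 9 control members, with 38.2% of the mutant UMIs in 1 of them. Rgs16, which dampens G protein signals, stood at 76.4 and 29.0 CPM (1.37, 0.56 to 2.30), in 25 and 15 members. Apold1, an early response gene of endothelium, stood at 127 and 49.4 CPM (1.34, 0.72 to 2.03), in 33 and 22 members, and Ccm2l stood at 71.2 and 32.4 CPM. In capillary barcodes the ratios of Ckb, Rgs16 and Apold1 were 0.23, 0.05 and 0.25.

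Fst and Thbs1 rested on members with Gja4 alone. Fst, an activin antagonist, had 87 UMIs in 5 mutant members and 3 UMIs in 3 control members, all of them with Gja4 alone, and 49.4% of the mutant UMIs lay in 1 barcode. Thbs1, the matrix protein thrombospondin, had a ratio of 1.84 over all members (118 CPM in mutant and 32.4 CPM in control) and of -1.78 (-3.68 to -0.36) among members with Gja5 or Cxcl12, where it stood at 10.5 and 38.7 CPM. Gja1, the gene of connexin 43, stood at 139 and 64.8 CPM (1.09, 0.53 to 1.70), with 33.8% of its mutant UMIs in 1 barcode. Btg2, an inhibitor of division, stood at 292 and 140 CPM (1.06, 0.67 to 1.46), and its ratio was 0.74 in capillary and 0.97 in Npr3 and Plvap barcodes, so it was not confined to the members.

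The 12 lowest were Cma1, Cpa3, Tmem158, G0s2, Hand2os1, Srgn, Cdh11, Rtn1, Bmyc, Tshz2, Vcan and Mgp. Cma1 and Cpa3, mast cell proteases, had 0 UMIs in mutant members, and 138 and 78 UMIs in 1 control barcode. Of the control UMIs of Srgn, a granule proteoglycan, 88.6% lay in 1 barcode. These 3 values therefore come mainly from single barcodes. The other 9 were all 2-fold lower among members with Gja5 or Cxcl12 as well. In that subset the mean levels of Cdh11, Hand2os1 and Rtn1 lay below the floor of 50 CPM. Vcan, at -1.06 there, was under 2-fold once the top and cycling barcodes were also left out. Over barcodes with an arterial sum of at least 10, 3 of the 12 were 2-fold lower and 7 kept their sign, with Cdh11 at 0.62, G0s2 at 0.98, Hand2os1 at 0.52, Srgn at 0.56 and Vcan at 0.56. Hand2os1 had 26 of its 31 mutant and 144 of its 173 control UMIs in members with Gja4 alone, so that 5 and 29 UMIs stand behind its ratio among the others.

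Mgp showed the largest number of UMIs among them. It stood at 219 CPM (182 to 261) in mutant and 597 CPM (536 to 663) in control members, a ratio of -1.44 (-1.75 to -1.15), and at 171 and 489 CPM (-1.51, -1.91 to -1.14) in members with Gja5 or Cxcl12. Mgp restrains calcification and BMP signals. The other endothelial barcodes showed the same order of genotypes, with 263 CPM in the mutant and 695 CPM in the control library. A mutant barcode held 32.5% of the members' Mgp UMIs. Its ratio was -0.86 in capillary and -0.66 in Npr3 and Plvap barcodes. Tshz2, a zinc finger factor, stood at 64.3 and 188 CPM (a ratio of -1.53), and the proteoglycan Vcan at 79.9 and 228 CPM (-1.51, -2.03 to -1.02). With barcodes thinned to 4000 UMIs Vcan lay at 0.059. Among elastic fibre genes, 1 of 12 was higher and 5 lower with a median of -0.37, beside 12% and 13.1% of all genes. Among members with Gja5 or Cxcl12, 0 of 13 were higher and 8 lower with a median of -0.98, beside 12.9% and 15%. In Npr3 and Plvap barcodes 3 of 13 were higher and 2 lower, with a median of -0.18. In capillary barcodes 0 of 12 were higher and 1 lower, with a median of -0.18. Eln, the elastin gene, stood at 33.7 and 111 CPM (-1.69, -2.64 to -0.87) in members with Gja5 or Cxcl12.

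**Figure D5:**
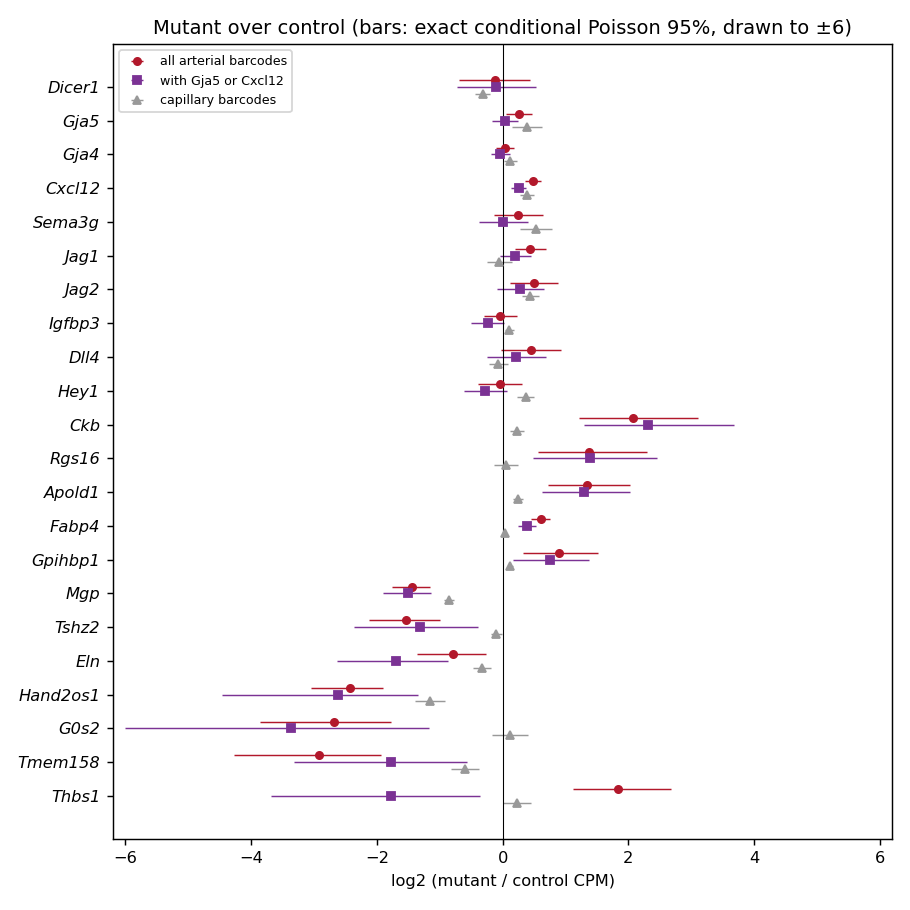
Log2 ratio of mutant over control CPM for 22 genes in all arterial members (circles), in members with Gja5 or Cxcl12 (squares) and in capillary barcodes (triangles), with exact conditional Poisson intervals drawn to 6. In members, Ckb, Rgs16 and Apold1 lie to the right and Mgp, Tshz2 and Eln to the left. The arterial genes lie nearer 0 than these, although the intervals of Gja5 and Cxcl12 lie above 0 over all members. Thbs1 changes side between all members and those with Gja5 or Cxcl12.

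Targets of microRNAs were examined because Dicer1 makes mature microRNAs. The mature let-7a-5p and miR-126a-3p are printed with the seed (bases 2 to 8) in capitals, since targets are recognised through it. Let-7 restrains growth genes in many tissues, and miR-126 is a microRNA of endothelium. Sequences are from RefSeq on GRCm38.p6.
mmu-let-7a-5p: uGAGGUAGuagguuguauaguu
mmu-miR-126a-3p: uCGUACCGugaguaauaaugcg
Of 18 measured let-7 targets, 2 were higher (Arid3a and Thbs1) and 1 lower (Myc) in mutant members, with a median of -0.04, where 12% and 13.1% of all genes lay beyond the same fold. Among members with Gja5 or Cxcl12, 1 was higher and 4 lower, with a median of -0.29. In Npr3 and Plvap barcodes 10 of 20 were higher and 1 lower and the median was 0.49, where 8.25% of 8640 genes lay higher and 4.92% lower by the same fold. Of 8 measured miR-126 targets, 1 was higher (Rgs16) and 2 lower (Vcam1 and Adam9), with a median of -0.07. Of 16 microRNA processing genes, 1 was higher (Ago1) and 2 lower (Drosha and Tnrc6c), with a median of 0.06.

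G2 and M phase genes leaned higher in mutant members but rested on few barcodes, and S phase genes did not lean higher. Of 15 measured S phase genes, 3 were higher and 4 lower, with a median of -0.14. Among members with Gja5 or Cxcl12, 3 of 11 S phase genes were higher and 0 lower, with a median of 0.0003. Of 19 measured G2 and M phase genes, 14 were higher and 0 lower, with a median of 0.76. Ube2c had 45 UMIs in 6 mutant members, 46.7% of them in 1 barcode, and 5 UMIs in 5 control members. Among members with Gja5 or Cxcl12, 16 of 19 were higher and 0 lower, with a median of 1.42. When each barcode was weighted equally the median was -0.10, and without cycling barcodes it was -0.35. For the unfolded protein response, 1 of 15 genes was higher and 1 lower with a median of 0.40. Of 11 genes that respond to blood flow, 2 were higher and 1 lower with a median of 0.17. The flow-responsive factor Klf2 stood at 750 CPM in mutant and 479 CPM in control members (0.65, 0.43 to 0.87), and its ratio in Npr3 and Plvap barcodes was 0.74.

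Markers of other cell types were present at low levels and moved with some of these results. Cardiomyocyte markers, 6 genes with none at 0, made up 0.247% of UMIs in mutant members (0% to 3.47% per barcode) and 0.0360% in control members (0% to 0.333%), and 5 of 6 were higher in mutant members. A single mutant barcode held 78.8% of those mutant UMIs. Of the 41 genes that were 2-fold higher, 25 were left unnamed because another cell class held more than 5 times their level, among them heart muscle genes such as Actc1, at 1150 and 97.2 CPM. Stromal markers, 8 genes with none at 0, made up 0.158% (0% to 2.49%) and 0.256% (0% to 3.83%), and 4 of 8, among them Postn and Dcn, were lower in mutant members, next to Mgp, Vcan and Cdh11, which stromal cells also express. Macrophage markers made up 0.00104% and 0.00358%, with C1qa, C1qc and Csf1r at 0 in control members. The part of these cells' RNA in the named differences was not tested, beyond the ratios without the barcodes named above. Scrublet called 1 of 84 mutant and 7 of 131 control members as doublets. The libraries shared 19 barcode sequences, 0 of them among members.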

How the data were processed

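The deposited files hold UMI counts per gene and barcode for 1 mutant and 1 control library, which the authors produced using Cell Ranger 5.0.0 (build mm10, per the submitters' processing notes); the annotation release is not given in the sources used here. Barcodes with at least 500 genes, 1000 UMIs and under 20% mitochondrial UMIs were kept. The libraries held 69475632 (mutant) and 70221728 (control) UMIs in 8250 and 12793 deposited barcodes; the members held 575665 and 586465. UMIs were summed over members and scaled to CPM (a total of 1000000); log2 ratios used 0.5 added counts, with exact conditional Poisson intervals, and shares had exact Clopper-Pearson intervals. No p-value was computed. Genes were named by size: the 12 highest and 12 lowest mutant over control at 50 CPM that no other class exceeded by more than 5 times, and the 20 highest and 8 lowest over other endothelial barcodes, leaving out genes of the rule, sex-linked, haemoglobin, mitochondrial, ribosomal and unnamed genes; list members and genes of the split by Gja5 or Cxcl12 are named beside these. Members and lists were chosen with earlier results of these data known. Doublets (Scrublet through scanpy 1.11.5) were called but kept. Analyses used Python 3.11.15.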

Additional observations from a re-analysis of the deposited data

Results flagged for a closer look

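Rtn1, a reticulon gene, moved in opposite directions in neighbouring endothelial classes. Its log2 ratio of mutant over control was -1.89 in arterial members (50.4 CPM in 11 mutant members and 189 CPM in 21 control members) and 0.24 in capillary barcodes, with intervals on opposite sides of 0. The difference between the classes was not tested, since each genotype has 1 library. Among members with Gja5 or Cxcl12 the ratio was -1.40, at 23.2 CPM in mutant and 62.9 CPM in control members, and members with Gja4 alone stood at 178 and 491 CPM.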

How the results depend on the processing

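No paired analysis was possible because each genotype has 1 library. Alternatives resting on Gja5 or Cxcl12, on sums of at least 10 or on leaving out the top barcodes were chosen after seeing the data. Requiring 2 times the next sum gave shares of 1.61% (mutant) and 1.92% (control), 106 genes 2-fold higher and 85 lower, and medians of -1.65 for G2 and M phase genes and 0.24 for stromal markers. Thinning to 4000 UMIs gave a control share of 2.86%, 75 genes higher and 88 lower, G2 and M phase at -0.11 and Vcan at 0.059. Female-type barcodes gave a mutant share of 4.00%, 65 genes higher and stromal markers at 0.12. Leaving out barcodes with over 1% other markers gave 27 genes higher and mural markers at -1.53. Leaving out cycling barcodes gave shares of 4.80% and 4.44% and G2 and M phase at -0.35. A gate of 6 UMIs put mural markers at -0.26, and equal weight per barcode put G2 and M phase at -0.10. Members with Gja5 or Cxcl12 gave a control share of 2.61%, mural markers at -0.57 and Thbs1 at -1.78. That share is of 3721 endothelial barcodes, with members that had Gja4 alone left out of the total too. Without their top and cycling barcodes too, the mutant share was 4.15%, G2 and M phase -0.30, mural markers -0.88, Srgn 0.76 and Thbs1 -1.60. Without the top barcodes alone, 21 genes were higher and Srgn lay at 0.96. Sums of at least 10 gave a mutant share of 8.34%, 6 genes lower in mutant, 46 lower than other endothelial barcodes, and list medians of -0.055 (Notch), 0.82 (endocardial) and 0.093 (stromal). There Cdh11 lay at 0.62, Col23a1 at 1.06, G0s2 at 0.98, Hand2os1 at 0.52, Mmrn1 at 3.61, Nrarp at -0.055, Slco3a1 at -0.13, Srgn at 0.56 and Vcan at 0.56. In the main setting the medians were 0.52 for mural and -0.51 for stromal markers. The main endocardial median was -0.54, with 1 of 10 higher and 5 lower, beside 12% and 13.1% of all genes. Among members with Gja5 or Cxcl12 it was -1.14, with 0 of 6 higher and 6 lower, beside 12.9% and 15%. A mean of 20 CPM gave 153 genes higher and 162 lower, and 100 CPM gave 18 and 13. The causes were not tested. The other 82 shares and counts stayed within their interval or 1.5 times. Dicer1, whose interval includes 0, ranged from -0.66 to 0.21. Of list medians, 343 stayed within 0.2 of the reported value and 105 moved further without a listed reversal; of named-gene ratios, 702 stayed within their interval and 87 moved beyond it. Depth limits single genes: 0 UMIs in the 12 mutant members with Gja4 alone still allow 36.4 CPM.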

Other observations

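Some further gene groups were counted over other endothelial barcodes, where 3.53% of 8632 genes stood 2-fold higher and 3.26% lower in both libraries. Of 14 basement membrane genes, 4 stood 2-fold higher in both libraries (Lama5, Lamb2, Col18a1 and Agrn) and 1 lower (Col15a1). Col18a1, a collagen of vessel basement membranes, stood at 2437 CPM in mutant and 2196 CPM in control arterial barcodes, against 708.6 and 651 CPM in the others. Col15a1 stood at 12.2 and 54.6 CPM, against 225 and 142 CPM. Of 13 VEGF and angiopoietin genes, 5 stood higher (Nrp1, Vegfa, Vegfc, Ptprb and Apln) and 1 lower (Nrp2). Of 11 tip cell genes, 4 stood higher (Apln, Dll4, Cxcr4 and Mcam) and 3 lower (Kcne3, Trp53i11 and Adm), so that this list did not move one way. Of 13 junction genes, 2 stood higher, among them Cldn5, a tight junction protein, at 1209 and 874.7 CPM against 421.8 and 281 CPM.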
